A study of Rattus norvegicus with 3 samples.

Results

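The interferon-response genes are 63 of the 15037 genes that the platform annotation names on this array. They were picked by a symbol pattern, which was chosen with earlier results of these data known. It takes interferon receptors, STAT and IRF transcription factors, RNA sensors, and IFIT and IFITM proteins. It also takes guanylate-binding proteins, antigen presentation genes and other genes named for their induction by interferon. RNA from FRSK cells, an established line of rat fetal skin keratinocytes, was read on 3 whole-transcript arrays. One array was hybridised for each culture. The control culture was unstimulated, and the labels do not say whether it received vehicle. The second culture received Met-ENK, the opioid pentapeptide Met-enkephalin, and the third received β-END(1-9), a fragment of β-endorphin that begins with the same residues, each at 100 nM for 24 h. All 3 cultures were grown in the same serum-containing medium, and no interferon or virus is named in the labels. The comparisons ask how these genes stood with each peptide and whether the peptides differed. Because each condition has 1 array, no spread between cultures can be estimated, no test was run, and every difference below is one between 2 single arrays.

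Interferons are secreted proteins that warn neighbouring cells of infection. Type I interferons bind a receptor of Ifnar1 and Ifnar2, and interferon gamma binds one of Ifngr1 and Ifngr2. JAK kinases on the receptors then phosphorylate STAT proteins. STAT complexes with Irf9 bind the interferon-stimulated response element, and STAT dimers bind the gamma-activated sequence. The genes so induced block viral entry, translation and budding or raise antigen presentation. Skin keratinocytes carry both receptors. Ifnar2 is not analysed here.

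Signals are on the log2 scale, where 1 unit is a 2-fold change. Signals of the 23 background probe sets ranged from 2.51 to 7.57, so genes with a mean over the 3 arrays above 7.6 were described apart from the rest. By this limit 19 members were expressed and 44 were not, against 6243 and 8794 of all named genes. The member just inside the limit was Usp18, with a mean of 8.04, and the one just outside was Ifi30, with 7.46. All 19 expressed members lay above the background range on each array, with signals from 7.81 to 13.93. Of the other 44, 43 lay within that range on all 3 arrays. The expressed ones included 3 receptor genes, 4 STAT factors, 2 IRF factors and Irf2bpl. The rest of the expressed members were Ifitm2, Ifitm3, Ifi27, Eif2ak2, Usp18, Trim25, B2m, Tap1 and Isg20l2. The genes of IFIT and guanylate-binding proteins, all 12 OAS genes, Mx1, Mx2, Rsad2 and Isg15 were at background level. The plot of the expressed genes shows the signals by role.

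**Figure D1:**
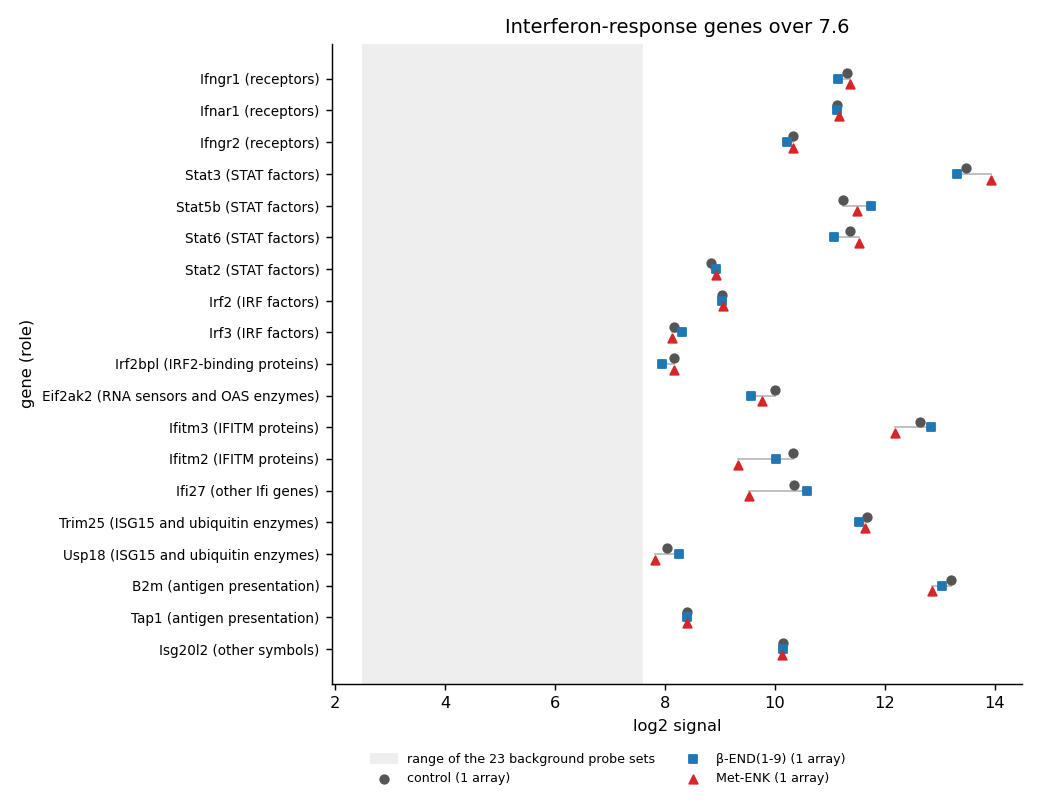
Log2 signals (horizontal axis) of the 19 interferon-response genes with a mean over 7.6, 1 point per array; the grey band is the range of the 23 background probe sets, and grey lines join the lowest and highest array of a gene. Ifitm2, Ifi27, Ifitm3 and Stat3 have the widest separations, and Tap1 has 1 signal on all 3 arrays.

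A 1.5-fold difference is 0.58 on the log2 scale. Of the 19 expressed members, 10.5% reached it with Met-ENK against control, beside 6.17% of all expressed genes. Between the peptides the shares were 21.1% and 4%, and with β-END(1-9) against control 0% and 2.02%. With Met-ENK, 2 of 19 (Ifitm2 and Ifi27) passed 1.5-fold below control and 0 passed it above. Over all 6243 expressed genes, 5.81% were at least 1.5-fold lower and 0.352% higher in this comparison. With β-END(1-9), 0 of 19 members were past 1.5-fold in either direction, beside 1.81% of all expressed genes lower and 0.208% higher. Between the peptides 3 members passed 1.5-fold with the Met-ENK array lower (Ifi27, Ifitm2 and Ifitm3) and 1 with it higher (Stat3), beside 2.37% and 1.63% of expressed genes. The median difference of the 19 members was 0.00 in each of the 3 comparisons, and that of all expressed genes was 0.00, -0.04 and 0.00. With Met-ENK 7 members were above control, 9 below and 3 equal to it, beside 33.5%, 45.8% and 20.7% of all expressed genes. With β-END(1-9) the counts were 6, 9 and 4, beside 17.3%, 58.8% and 23.8%. Exactly equal signals on different arrays are unusual in RMA output, and how they arose was not tested. The medians of 0.00 and the genes given below with 1 signal on several arrays rest on such values. The signals of 10 of the 19 kept within 0.25 over the 3 arrays. After quantile normalization the lower share of expressed genes past 1.5-fold was 82.7% in place of 94.3% for Met-ENK against control, and 67.7% in place of 89.7% for β-END(1-9) against control. The second share was 79.6% with differences centred on the median of expressed genes and 79.5% with the trend along genomic span subtracted.

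**Figure D2:**
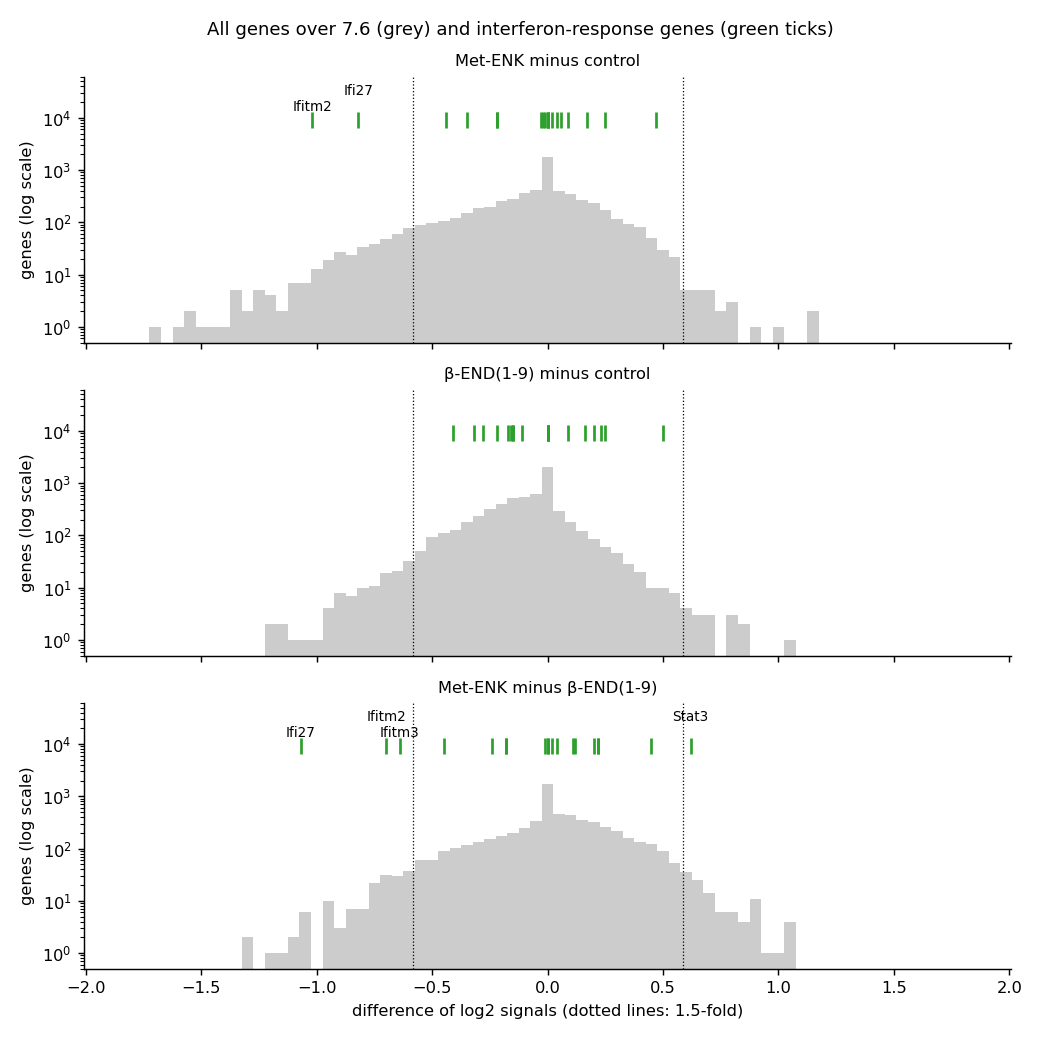
Number of genes (vertical axis, log scale) by difference of log2 signals (horizontal axis) for all 6243 expressed genes, with the 19 interferon-response genes as green ticks in each of the 3 comparisons. Dotted lines mark 1.5-fold; the named ticks are the 2 members past it for Met-ENK against control and the 4 between the peptides.

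The receptor genes were expressed and nearly level. Ifnar1, a chain of the type I interferon receptor, gave log2 signals of 11.13 in control cells, 11.13 after β-END(1-9) and 11.17 after Met-ENK. Ifngr1, the ligand-binding chain of the interferon gamma receptor, had 11.31, 11.15 and 11.37 in the same order, which is kept for all genes below. Ifngr2, its signalling chain, had 10.32, 10.22 and 10.32. The widest range among the 3 receptor genes was 0.22, for Ifngr1, with the β-END(1-9) array lowest. Ifnar1 and Ifngr2 are adjacent genes in the RefSeq annotation.

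Among STAT genes, 4 of the 6 measured were expressed, and all 4 stood above control with Met-ENK under each of the 3 other scalings too, by a median of 0.21 and none by 1.5-fold. Of all expressed genes, 33.5% stood above control with Met-ENK. Stat3, which relays IL-6 family and growth factor signals in epidermis as well as some interferon signals, had 13.47, 13.31 and 13.93. The Met-ENK array stood 0.47 above control and 0.62 above β-END(1-9), a 1.54-fold difference between the peptides. Of all expressed genes, 1.36% were at least as far above control on the Met-ENK array and 1.27% at least as far above β-END(1-9). With quantile normalization the difference between the peptides was 0.58, and with the span trend subtracted 0.57, both just under 1.5-fold. Stat5b, which responds to cytokines and growth hormone, had 11.24, 11.74 and 11.49. Here the β-END(1-9) array was highest, at 0.50 above control, a difference reached by 0.481% of expressed genes. After quantile normalization it was 0.60 and so past 1.5-fold. Stat6, the factor of IL-4 and IL-13 signalling, had 11.36, 11.08 and 11.53. It was lowest with β-END(1-9) and highest with Met-ENK, as Stat3 was. Stat2, a factor of the type I response, had 8.83, 8.92 and 8.92, with the same value on both peptide arrays. Stat5a and Stat4, at background level, did not pass 1.5-fold, with signals of 6.79, 6.79 and 6.46 for Stat5a and from 4.76 to 4.81 for Stat4. Stat5b, Stat5a and Stat3 follow each other on chromosome 10 in the RefSeq annotation. Stat3 was highest with Met-ENK, Stat5b with β-END(1-9), and Stat5a was lowest with Met-ENK.

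The IRF factors bind response elements of interferon and interferon-induced genes. Irf2, which mostly represses them, had 9.04, 9.04 and 9.06. Irf3, which is activated by nucleic acid sensing and switches on Ifnb1, had 8.16, 8.31 and 8.13. Irf2bpl, caught by the symbol pattern and related to a co-repressor of Irf2, had 8.16, 7.94 and 8.16. These 3 expressed genes kept within 0.22 over the arrays. The other 6 measured IRF genes (Irf1, Irf4, Irf5, Irf7, Irf8 and Irf9) were at background level. Irf9, the DNA-binding member of the complex that type I interferons form with Stat2, had 5.12, 5.44 and 5.81, which put Met-ENK 0.69 above control. Irf7, the interferon-induced amplifier of the type I response, had 4.61, 3.88 and 3.71. Both peptide arrays were below control, with differences of -0.73 for β-END(1-9) and -0.90 for Met-ENK, which share the control array. Irf1 had 6.64, 6.64 and 6.63. Irf4, Irf5 and Irf8 kept within 0.36 over the arrays, and Irf2bp1, which encodes a co-repressor of Irf2, had 6.56 on each.

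The IFITM proteins sit in membranes and hinder the fusion of enveloped viruses, and both expressed genes of the family were lowest with Met-ENK, also under the 3 other scalings. Ifitm2 gave log2 signals of 10.33 in control cells, 10.01 after β-END(1-9) and 9.32 after Met-ENK. The Met-ENK array was lowest, with differences of -1.02 from control and -0.70 from β-END(1-9). Of all expressed genes, 0.657% were at least as far below control on the Met-ENK array. Ifitm3, the member best known for restricting influenza virus, had 12.63, 12.84 and 12.19. It was lowest with Met-ENK, at -0.44 from control, and highest with β-END(1-9), at 0.20, so that Met-ENK minus β-END(1-9) was -0.64. Among expressed genes, 10.1% were at least as far below control on the Met-ENK array and 1.78% at least as far below β-END(1-9). Ifitm1 had 4.12 on all 3 arrays and was at background level. In the RefSeq annotation the 3 genes are direct neighbours on chromosome 1, with Ifitm1 in the middle. The IFITM genes are close copies of each other, and the labels do not say how far their probes can tell them apart.

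Ifitm2 and Ifitm3 are also short, with genomic spans of 1.18 and 1.11 kb, in the shortest of 10 equal bins of expressed genes by span. The median difference of that bin between Met-ENK and control was -0.19, and the part of span in the IFITM differences was not tested. With the bin's median subtracted, the Met-ENK difference from control was -0.83 for Ifitm2 and -0.25 for Ifitm3. The difference between the peptides became -0.60 for Ifitm2 and -0.55 for Ifitm3, the latter no longer past 1.5-fold.

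Ifi27 encodes a small interferon-induced protein of mitochondrial and nuclear membranes that is also raised in psoriatic epidermis. Its log2 signals were 10.34 in control cells, 10.59 after β-END(1-9) and 9.52 after Met-ENK. The Met-ENK array was the low one, with differences of -0.82 from control and -1.07 from β-END(1-9). The first difference was reached by 1.99% of expressed genes, or 124 of 6243. The second, 2.11-fold, was reached by 0.112%, or 7 of 6243. Subtracting the median of genes of similar span gave -0.75 against control and -1.07 between the peptides. Its neighbour Ifi27l2b, of the same family, was at background level with 5.40, 5.40 and 5.22.

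The windows around the annotated starts of these 3 genes are shown because all 3 hold matches to a motif of the interferon-activated STAT and IRF complexes. They run from 250 bases before to 50 bases after the start, 5′ to 3′ on the strand of the gene, from RefSeq on GRCr8. Capitals mark matches on either strand to GAAANNGAA, the core of the interferon-stimulated response element, or to TTCNNNGAA, the gamma-activated sequence, and overlapping matches run together.
Ifitm2, chr1:205482299-205482598, minus strand: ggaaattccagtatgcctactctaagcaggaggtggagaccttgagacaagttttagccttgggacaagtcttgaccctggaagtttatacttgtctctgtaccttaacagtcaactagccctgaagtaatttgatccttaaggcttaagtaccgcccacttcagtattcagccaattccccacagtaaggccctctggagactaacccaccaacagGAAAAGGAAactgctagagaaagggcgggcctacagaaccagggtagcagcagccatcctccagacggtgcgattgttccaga
Ifitm3, chr1:205541709-205542008, minus strand: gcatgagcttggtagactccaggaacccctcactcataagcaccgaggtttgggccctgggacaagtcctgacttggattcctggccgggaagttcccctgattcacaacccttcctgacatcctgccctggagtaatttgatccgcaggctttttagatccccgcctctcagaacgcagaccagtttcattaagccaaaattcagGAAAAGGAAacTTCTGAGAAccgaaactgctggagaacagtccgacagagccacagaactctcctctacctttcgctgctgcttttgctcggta
Ifi27, chr6:128355062-128355361, plus strand: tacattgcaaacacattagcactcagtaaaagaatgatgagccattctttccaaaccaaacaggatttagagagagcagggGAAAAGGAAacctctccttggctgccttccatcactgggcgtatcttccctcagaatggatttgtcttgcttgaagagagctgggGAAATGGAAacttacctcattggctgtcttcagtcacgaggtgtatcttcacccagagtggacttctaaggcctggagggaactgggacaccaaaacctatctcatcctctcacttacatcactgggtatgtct

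Ifitm2 and Ifitm3 hold the same match, GAAAAGGAA, close to the start, and the longest run of bases that their windows share is 15 bases, cagGAAAAGGAAact, which contains it. Ifitm3 has a gamma-activated sequence, TTCTGAGAA, 2 bases beyond it. Ifi27 has the match GAAAAGGAA and another, GAAATGGAA. Of the 63 members, 52 have a window in the RefSeq table, and 23 of these (44.2%) hold the response element core, against 8.14% of the 12924 windows of named genes and 9.71% of all 33469 windows, all of the same length. The gamma-activated sequence was found in 11 of the 52 (21.2%), in 7.88% of those of named genes and in 8.87% of all windows. Among expressed members 6 of 17 windows held the response element core, and among those at background level 17 of 35. Expressed carriers besides these 3 genes were B2m, Eif2ak2 and Tap1, and Tap1 had the same signal on every array. A match describes letters in the window and does not show that a factor was bound.

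**Figure D3:**
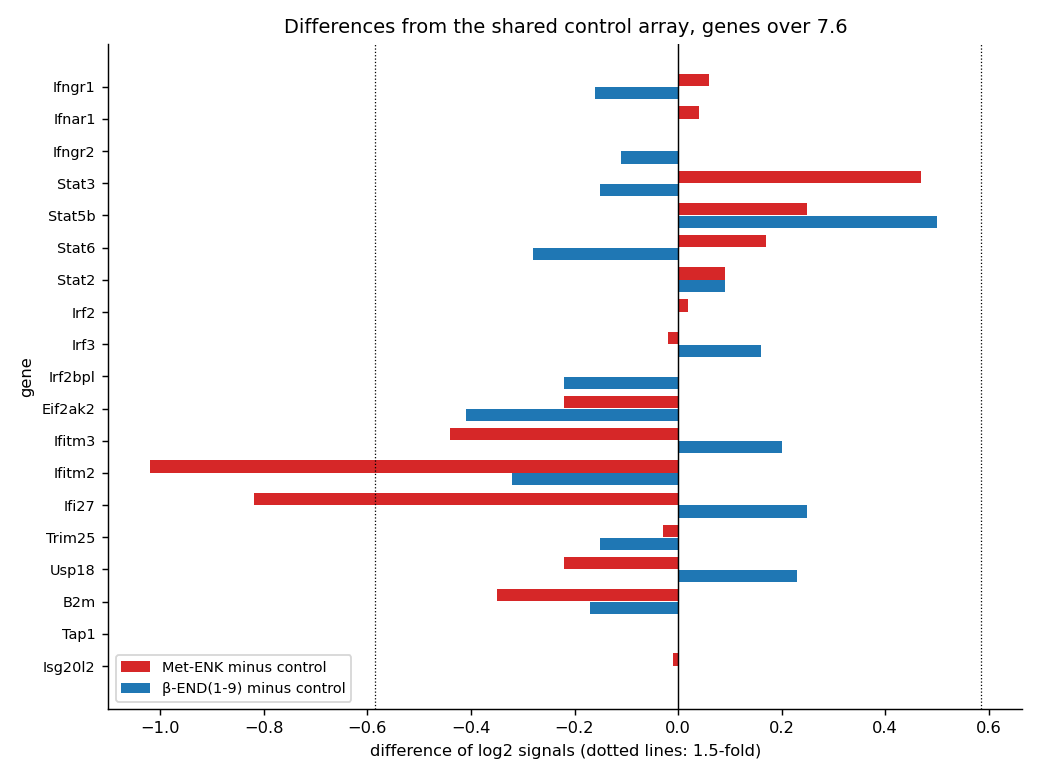
Difference of log2 signals from the shared control array (horizontal axis) for the 19 expressed interferon-response genes, in red for Met-ENK and in blue for β-END(1-9), 1 array each; dotted lines mark 1.5-fold. Ifitm2 and Ifi27 pass the line with Met-ENK, and no gene passes it with β-END(1-9).

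The remaining expressed effectors differed less. Eif2ak2, the kinase PKR that halts translation on sensing double-stranded RNA, had 9.99, 9.57 and 9.77. Both peptide arrays were below control, with differences of -0.41 for β-END(1-9) and -0.22 for Met-ENK. Usp18, which removes Isg15 from proteins and damps the type I receptor, had 8.03, 8.26 and 7.81. Like Ifi27 and Ifitm3 it was highest with β-END(1-9) and lowest with Met-ENK, at a difference of -0.45 between the peptides. Trim25, a ubiquitin ligase that acts on the RNA sensor RIG-I, had 11.67, 11.52 and 11.64. Isg20l2, a nuclease of ribosome maturation that the symbol pattern catches by name, had 10.14, 10.14 and 10.13.

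Of the 2 expressed antigen presentation genes, 1 differed between the arrays, by less than 1.5-fold. B2m, the light chain of MHC class I, had 13.20, 13.03 and 12.85, with differences from control of -0.35 for Met-ENK and -0.17 for β-END(1-9). The first was -0.28 with the span trend subtracted. Tap1, a subunit of the peptide transporter, had 8.40 on all 3 arrays, and Tap2, its partner, also had 1 signal on all 3, at background level. The immunoproteasome gene Psmb9 had 6.97, 6.95 and 6.42, lowest with Met-ENK, and Psmb8 had 4.20 on each array. The genes Tap2, Psmb8, Tap1 and Psmb9 follow each other on chromosome 20 in the RefSeq annotation.

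Members at background level differed in both directions. Of 44, 4 passed 1.5-fold above control with Met-ENK (Irf9, Ifi44, Mx2 and Gbp2) and 2 below it (Irf7 and Isg20), beside 7.91% of the 8794 background-level genes past 1.5-fold either way. With β-END(1-9), 2 were higher (Bst2 and Mx2) and 2 lower (Isg20 and Irf7), beside 6.45%. Between the peptides 1 was higher with Met-ENK (Ifi44) and 1 lower (Bst2), beside 6.66%. The median difference over the 44 was 0.00 in each comparison, as it was over all background-level genes. Signals of this size cannot be told apart from background by level.

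Bst2, tetherin, holds budding enveloped viruses at the cell surface. Its signals were 6.33 in control cells, 7.42 after β-END(1-9) and 6.56 after Met-ENK. The β-END(1-9) array stood alone, 1.09 above control (2.13-fold), and Met-ENK minus β-END(1-9) was -0.86. All 3 signals were still below the upper end of the background range. The difference from control was between 1.05 and 1.15 under the 3 other scalings and the span correction. Both motifs are present in the window of Bst2, as in those of Ifitm3 and, at background level, Oas1a, Oas1b and Psmb8. Oas1a had 3.17 and Psmb8 4.20 on all 3 arrays, and Oas1b had 3.51, 3.56 and 3.56. The Bst2 window is shown with matches in capitals as above: 2 response element cores and a gamma-activated sequence that overlap in 1 stretch.
Bst2, chr16:18254918-18255217, minus strand: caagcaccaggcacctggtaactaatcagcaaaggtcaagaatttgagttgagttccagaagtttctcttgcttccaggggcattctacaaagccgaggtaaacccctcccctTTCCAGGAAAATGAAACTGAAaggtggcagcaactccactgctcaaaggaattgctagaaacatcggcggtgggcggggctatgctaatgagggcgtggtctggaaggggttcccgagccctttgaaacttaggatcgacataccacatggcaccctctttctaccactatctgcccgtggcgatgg

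Isg20, an exonuclease that degrades viral RNA, had 7.41, 6.48 and 6.69. Here control was high and both peptide arrays low, with differences of -0.93 for β-END(1-9) and -0.72 for Met-ENK. Mx2, a dynamin-like GTPase that blocks incoming viruses, had 3.82, 4.46 and 4.46. The peptide arrays had exactly equal signals, so the 2 differences from control are 1 value, 0.64, which was 0.58 and 0.57 after quantile normalization. Ifi44 had 4.50, 4.50 and 5.19, with Met-ENK alone above the others. The guanylate-binding protein gene Gbp2, whose product attacks pathogen vacuoles, had 6.08, 6.13 and 6.68. Met-ENK was 0.61 above control, and 0.58 with each array centred on its median, just under 1.5-fold.

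Several well-known interferon-induced genes stayed low on all 3 arrays, whereas others, such as Ifitm3, Ifi27 and Usp18, were expressed, as given above. Cxcl10, one of the further interferon-stimulated genes listed below, was also expressed, with 7.99, 7.94 and 7.94. Active OAS enzymes make the messenger that activates RNase L. The 12 measured genes of the family, whose products were not assayed for activity, lay between 2.68 and 6.16. Of these, 10 form 1 unbroken row of neighbours on chromosome 12 in the RefSeq annotation. The widest range among them was 0.40, for Oas1i, with 6.16, 5.91 and 5.76. The IFIT proteins bind foreign RNA ends, and Ifit1, Ifit2 and Ifit3 lay between 2.95 and 3.99. Isg15, the ubiquitin-like modifier, had 4.06, 4.06 and 3.94, and Rsad2, viperin, had 4.20 on all 3. Mx1 had 4.05, 3.74 and 4.09. The RNA sensor Ifih1 had 6.75, 6.85 and 6.75, and Dhx58, its relative, 4.18 throughout. Of the 44 background-level members 12 had 1 signal on all 3 arrays (27.3%, against 18.5% of background-level genes), and Psmb8 and Rsad2 shared the same 3 values with each other. Trim21, an antibody receptor in the cytosol, had 6.88, 6.40 and 6.90, and Ifi30, a lysosomal reductase of antigen processing, had 7.72, 7.42 and 7.23. Trim21 was low with β-END(1-9), whereas Ifi30 was highest on control and lowest with Met-ENK.

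**Figure D4:**
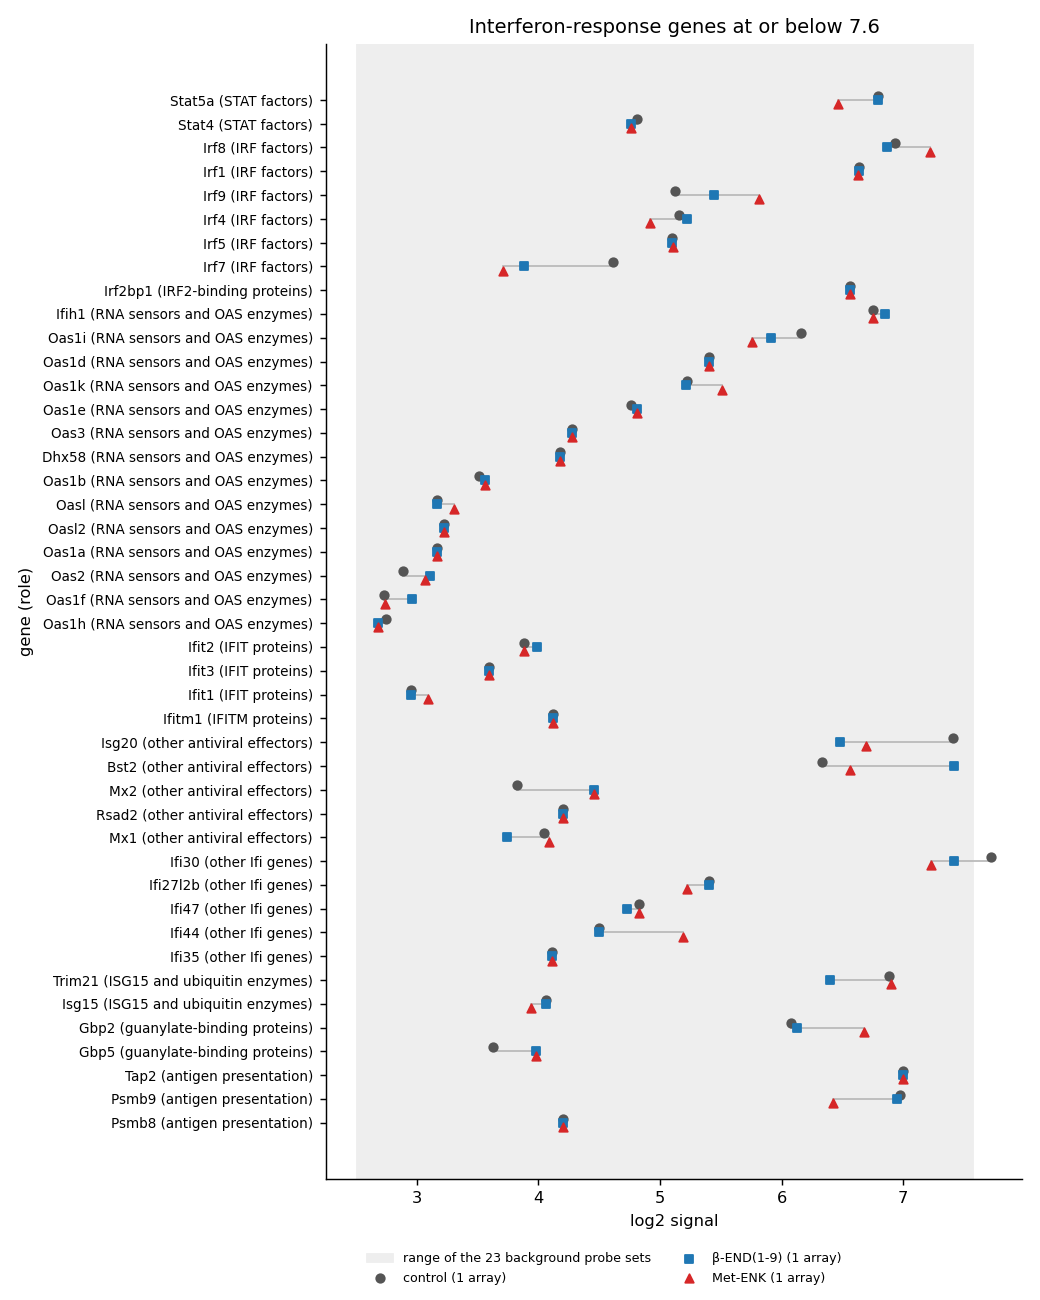
Log2 signals (horizontal axis) of the 44 interferon-response genes with a mean at or below 7.6, 1 point per array, ordered by role; the grey band spans the 23 background probe sets, from 2.51 to 7.57. Only Ifi30 on the control array (7.72) lies outside the band, and Bst2, Isg20 and Irf7 have the widest separations.

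Other genes of the pathway are given by role, with counts past 1.5-fold in any of the 3 comparisons. The share of all expressed genes past it in any comparison was not counted. In single comparisons it was 6.17% for Met-ENK against control, 2.02% for β-END(1-9) against control and 4% between the peptides. The 6 measured interferon genes (Ifna2, Ifna4, Ifna5, Ifnb1, Ifng and Ifnk) were all at background level. Ifna4 was 0.75 higher with β-END(1-9) and Ifna5 0.67 higher with Met-ENK than on control, at signals from 4.85 to 6.10, and these genes are close copies of each other. Of the 17 kinases, inhibitors and further receptor chains, 13 were expressed, and 1 of these was past 1.5-fold in any comparison. That gene was Pias3, an inhibitor of Stat3, with 8.34, 8.14 and 7.75, so that Met-ENK minus control was -0.60. The kinase Jak1, which serves both interferon receptors, had 12.28, 12.31 and 12.70, so that Met-ENK was 0.42 above control. Jak2 of the interferon gamma receptor had 12.68, 12.66 and 12.81, and the phosphatase Ptpn11 had 12.38 on all 3 arrays. The STAT inhibitor Socs3 had 8.37 on control and 7.93 with either peptide.

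Of 10 measured nucleic acid sensing genes 4 were expressed, and 0 of these were past 1.5-fold. They were the adaptor Myd88, with 10.43, 10.19 and 10.23, the kinase Ikbke, with 9.46, 9.60 and 9.39, Tbk1, with 9.34 on all 3, and Irak1, with 9.53, 9.10 and 9.21. At background level the DNA sensor Tlr9 was 0.83 higher with β-END(1-9) than on either other array (5.77, 6.59 and 5.77). Of 41 further interferon-stimulated genes 20 were expressed, again with 0 past 1.5-fold in any comparison. Met-ENK minus control had a median of 0.00 over these 20, and β-END(1-9) minus control one of -0.08. Wars1, a tryptophanyl-tRNA synthetase induced by interferon gamma, had 14.27, 14.08 and 14.31. The proteasome activator gene Psme1 had 11.54, 11.48 and 11.36, and Zc3hav1, an antiviral zinc finger protein, 11.54, 11.35 and 11.37. Among those at background level, Igtp, an immunity-related GTPase, had 6.45, 5.50 and 6.45, Ube2l6, the Isg15-conjugating enzyme, 5.78, 5.30 and 4.97, Trim34 5.40, 4.77 and 4.86, and Parp14 7.43, 7.28 and 7.91. Each was past 1.5-fold in at least 1 comparison, in different directions.

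The RT1 class I genes of the rat MHC numbered 20, of which 5 were expressed and 0 of these past 1.5-fold. RT1-CE15 had 9.70, 9.70 and 9.88, RT1-CE3 had 8.92, 8.88 and 8.72, and RT1-CE13 had 8.51, 8.73 and 8.51. Of the 15 at background level RT1-M6-2 had 4.66, 4.82 and 5.88, and RT1-A1 had 6.51, 6.37 and 5.92. RT1-M1-4 and RT1-M3-1 were 0.74 and 0.75 higher with β-END(1-9) than on control, and RT1-T18 was 0.59 higher with Met-ENK. Many genes of this family are close copies of each other, and whether their probes tell them apart was not tested.

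The cells carried keratinocyte markers. All 9 measured keratinocyte markers were expressed, among them Krt14, Tp63 and Itgb4. Of 16 macrophage and dendritic cell markers 2 were expressed, C1qa and Cd14, and the defining Ptprc, Csf1r and Itgam were at 4.08, 4.02 and 4.05, at 3.21, 3.55 and 3.23, and at 2.68, 2.52 and 2.60. The summed signal of that list was 10.25, 10.33 and 10.03 on the log2 scale. C1qa had 9.05, 9.32 and 8.73, the same order of arrays as Ifi27, Ifitm3 and Usp18. Other expressed genes, such as Irf3, Ikbke and Dtx3l, were also highest with β-END(1-9) and lowest with Met-ENK. The share of all expressed genes with this order was not counted. Cd14 had another order, with 8.65, 8.48 and 8.48. At background level, C1qb had 5.28 on all 3 arrays, and C1qc had 4.41, 4.51 and 4.33. The part of these markers in the differences of Ifi27, Ifitm3 and Usp18 was not tested. The lymphocyte list (8 measured) and the endothelial list (6) had 0 expressed members, and of 8 fibroblast markers 2 were expressed.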

How the data were processed

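The authors deposited a log2 signal for each probe set on each array, made with RMA in the Affymetrix Expression Console and Transcriptome Analysis Console, per the submitters' processing notes. Their versions and the annotation's genome build were not given in the sources used here. Of 24834 probe sets, 1646 controls were left out. The platform annotation names 1 symbol for 15049 of 23188 clusters, several for 0 and none for 8139. Where a gene had several probe sets (10 genes, 0 of them members), the set of highest mean signal was taken. All 63 Entrez identifiers were found in RefSeq (GRCr8), which also gave spans, gene order and promoter windows.

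Differences were taken between arrays with Python 3.11.15 and pandas 2.3.3, without a test, since each group has 1 array. The number of arrays limits the precision. In these 10 genes the log2 differences of these sets lay apart by a median of 0.24 for Met-ENK against control, 0.14 for β-END(1-9) against control and 0.17 between the peptides, and by at most 0.57. The groups come from the sample titles. Genes were expressed at a mean over 7.6 and counted at 1.5-fold.

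All expressed members were described, with background-level members past 1.5-fold. Of further pathway genes, those past 1.5-fold and the 3 with the highest mean in each list were named, and other genes named were chosen after their values were seen. The members and lists were chosen with earlier results of these data known. Interferon receptors that a ligand pattern also matched were taken out of the ligand list. The counting and scaling were tested on simulated data. Alternatives were 3 scalings, a correction for genomic span, 2 other filters, a 2-fold threshold, the mean of the list and the mean of probe sets.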

Additional observations from a re-analysis of the deposited data

Results flagged for a closer look

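Expressed genes that lay on opposite sides of the control array with the 2 peptides, and at least 1.5-fold apart between them, were picked out for a closer look, 3 in all. Ifi27 was 1 of them, with a difference of -1.07 between Met-ENK and β-END(1-9), at -0.82 from control with the former and 0.25 with the latter. Ifitm3 differed by -0.64 between the peptides, and Stat3 by 0.62 in the other direction. With 1 array for each peptide these differences were not tested, and both peptides share the control array. Of all 6243 expressed genes, 118 (1.89%) met the same description.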

How the results depend on the processing

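No paired analysis was possible because each group has 1 array, and no array could be left out for the same reason. The number of expressed members past 1.5-fold was 2 for Met-ENK against control, 0 for β-END(1-9) against control and 4 between the peptides. At 2-fold the counts were 1 for Met-ENK against control and 1 between the peptides, beside 0.753% and 0.256% of expressed genes. Quantile normalization gave 1 for β-END(1-9) against control (Stat5b), beside 1.54% of expressed genes, and subtracting the span trend gave 2 between the peptides, without Ifitm3 and Stat3, beside 3.4%. Without a filter the counts against control were 8 for Met-ENK and 4 for β-END(1-9) over all 63 members, beside 7.19% and 4.61% of all named genes. Between the peptides 2 were then higher with Met-ENK and 4 lower, beside 5.56%. With the lower limit of 6.41, the median of named genes, the count was 2 for β-END(1-9) against control over 30 members, beside 2.83% of the genes above that limit. That limit also added Isg20 for Met-ENK against control and Bst2 between the peptides, beside 6.72% and 4.59% of those genes. The mean in place of the median was -0.11 for Met-ENK against control, and all other medians under the alternatives tried lay within 0.1 of 0. The mean of probe sets changed no count, since no member has several. Of the single-gene differences past 1.5-fold, 3 of 18 fell under it with quantile normalization (Mx2 against control with both peptides, and Stat3 between the peptides), 2 of 18 with the span trend subtracted, 1 of 18 with median centring (Gbp2) and 0 of 18 when differences were centred on the median of expressed genes. No direction past 1.5-fold turned. Members at background level limit what can be read from 44 of the 63 genes.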

Other observations

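Exactly equal signals, which are unusual in RMA output, occurred among these genes and over the whole array. For Met-ENK and control 3 of the 19 expressed members and 15 of the 44 at background level had the same signal on both arrays, and for β-END(1-9) and control 4 and 20. Over all named genes the shares were 20.7% of expressed and 31.2% of background-level genes for Met-ENK and control, and 23.8% and 33.9% for β-END(1-9) and control. Some members also had the same 3 signals as other transcript clusters: Psmb8 and Rsad2, on different chromosomes, shared theirs with 4 other clusters each, Oas1a with 4, Ifi35 with 3, and Oas3 and Dhx58 with 1 each.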
